A study of Rattus norvegicus with 49 samples.

Results

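The transcripts of granins and of the enzymes and helper proteins that cut prohormones were examined in rat thyroid, for 10 genes out of the 15154 gene symbols that could be named on the microarray. The members were Chga, Chgb, Scg2, Scg3, Scg5 and Resp18 among the granins and granule proteins, Pcsk1, Pcsk2 and Pcsk1n among the convertases and their inhibitor, and the carboxypeptidase gene Cpe. They were fixed by name, and the probe of each was found through the RefSeq accession that the array gives it. Each member had 1 such probe, printed as 2 spots. Expression was measured on 49 one-colour Agilent arrays, each hybridised with RNA from the whole thyroid tissue of 1 male Sprague Dawley rat, and the arrays fell into 13 groups.

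Rats had received a single intravenous injection of 131I, a radioactive isotope of iodine that the thyroid takes up. Young rats were injected at 5 weeks of age and adult rats at 17 weeks. Young rats given 50 kBq were examined at 4, 7 and 10 months of age, which was 3, 6 and 9 months after injection (4 arrays each). Young rats given 0.5 kBq (4 arrays), 5 kBq (3 arrays) or 500 kBq (4 arrays) were examined at 10 months. Adult rats given 50 kBq were examined at 7, 10 and 13 months, again 3, 6 and 9 months after injection (4 arrays each). Untreated controls were 4 (4 arrays), 7 (3 arrays), 10 (4 arrays) and 13 months old (3 arrays). The controls of 7 and 10 months served both age classes.

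Granins are acidic proteins that gather with hormone precursors in the dense-core granules of endocrine cells and neurons. In these granules prohormone convertases cut the precursors, a carboxypeptidase trims the exposed basic residues, and dedicated helper proteins assist or inhibit the convertases. In the thyroid, the endocrine cells that carry such granules are the parafollicular C cells, which make calcitonin, whereas the follicular thyrocytes release thyroid hormone by another route. The parathyroid glands, which lie against or within the rat thyroid, hold a further granule-bearing cell type, the chief cell.

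All levels are given as log2 of the background-subtracted spot signal minus the 75th percentile of that signal on the same array, so that 0 is the level of the 75th percentile. An array held 62976 spots, of which 4259 were controls. Of the others 43.11% to 82.46% were well above background, and none was saturated. As a check of the labelled tissue, thyroglobulin (Tg) lay between 6.41 and 7.91 on 46 arrays, whereas 3 arrays stood apart. On replicate 2 of the young rats at 4 months after 50 kBq, the 75th percentile of the signal was 61.0 against at least 783 elsewhere, 43.11% of the spots were well above background, and Tg was 10.94. Replicate 3 of the same group and replicate 2 of the 7-month controls had Tg at 0.14 and -0.69, and calcitonin (Calca) at -7.20 and -4.36. The thyroid markers thus went against the label on those 2 arrays. Results that rest on these arrays are given with and without the 3 of them. Tg does not show how much other tissue the remaining 46 arrays held. On these the mean of 5 skeletal muscle markers ran from -2.049 to 7.476, and was 4.202 to 4.729 on the 13-month controls. The mean of 5 squamous epithelium markers ran from -6.009 to 2.605.

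Well above background were Chgb, Scg5, Resp18, Pcsk1, Pcsk1n and Cpe on all 49 arrays, Chga and Scg2 on 47, Pcsk2 on 45 and Scg3 on 44. All 10 members passed the filter on dim probes. Both low-Tg arrays were among those on which Chga, Scg3 and Pcsk2 were not well above background. Scg3 and Pcsk2 were also not well above background on replicate 1 of the 4-month controls and replicate 2 of the rats given 500 kBq. No member was below background on every array of a group.

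Chga encodes chromogranin A, the first described granin and a general marker of endocrine granules. Its level was lowest at -7.77 on the low-Tg array of the 7-month controls, had a median of 3.12 and was highest at 5.49 on replicate 2 of the rats given 500 kBq. Chgb, which encodes chromogranin B, ranged from -5.73 over a median of 1.81 to 5.49. Both were at their lowest on the same array.

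Scg2 encodes secretogranin II, the precursor of secretoneurin, and ranged from -9.22 over -2.18 to 1.30. Scg3 encodes secretogranin III, which tethers chromogranin A to the granule membrane, and ranged from -9.08 over -2.56 to 0.95. Scg5 encodes the chaperone that keeps proconvertase 2 inactive until it reaches the granule, and ranged from -6.39 over 2.54 to 5.30. Resp18, a granule protein first found as a dopamine-regulated transcript of the pituitary, ranged from -3.43 over 2.95 to 6.69. The highest array of these 4 was the same, replicate 3 of the 13-month controls, which was also the highest for Chgb.

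Pcsk2, which encodes prohormone convertase 2, ranged from -8.22 over -1.61 to 2.17. Pcsk1n, which encodes the inhibitor of the first convertase, ranged from -3.83 over -1.05 to 2.42. Pcsk1, which encodes that first convertase, ranged from -4.35 over -2.12 to 1.53, and its highest value came from the dim array. Among the other 46 arrays the highest Pcsk1 level was 0.90, on replicate 3 of the 13-month controls. The spread over the 49 arrays was wide for 9 members, with an SD of 1.22 for Pcsk1, 1.31 for Pcsk1n and 1.70 to 2.82 for the other 7, against a median SD of 0.577 over all probes.

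Cpe, which encodes carboxypeptidase E, stood at the other end. It ranged from -0.48 over 0.73 to 2.09 with an SD of 0.457, and 63.3% of all probes varied more. Cpe was thus the least variable member.

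**Figure D1:**
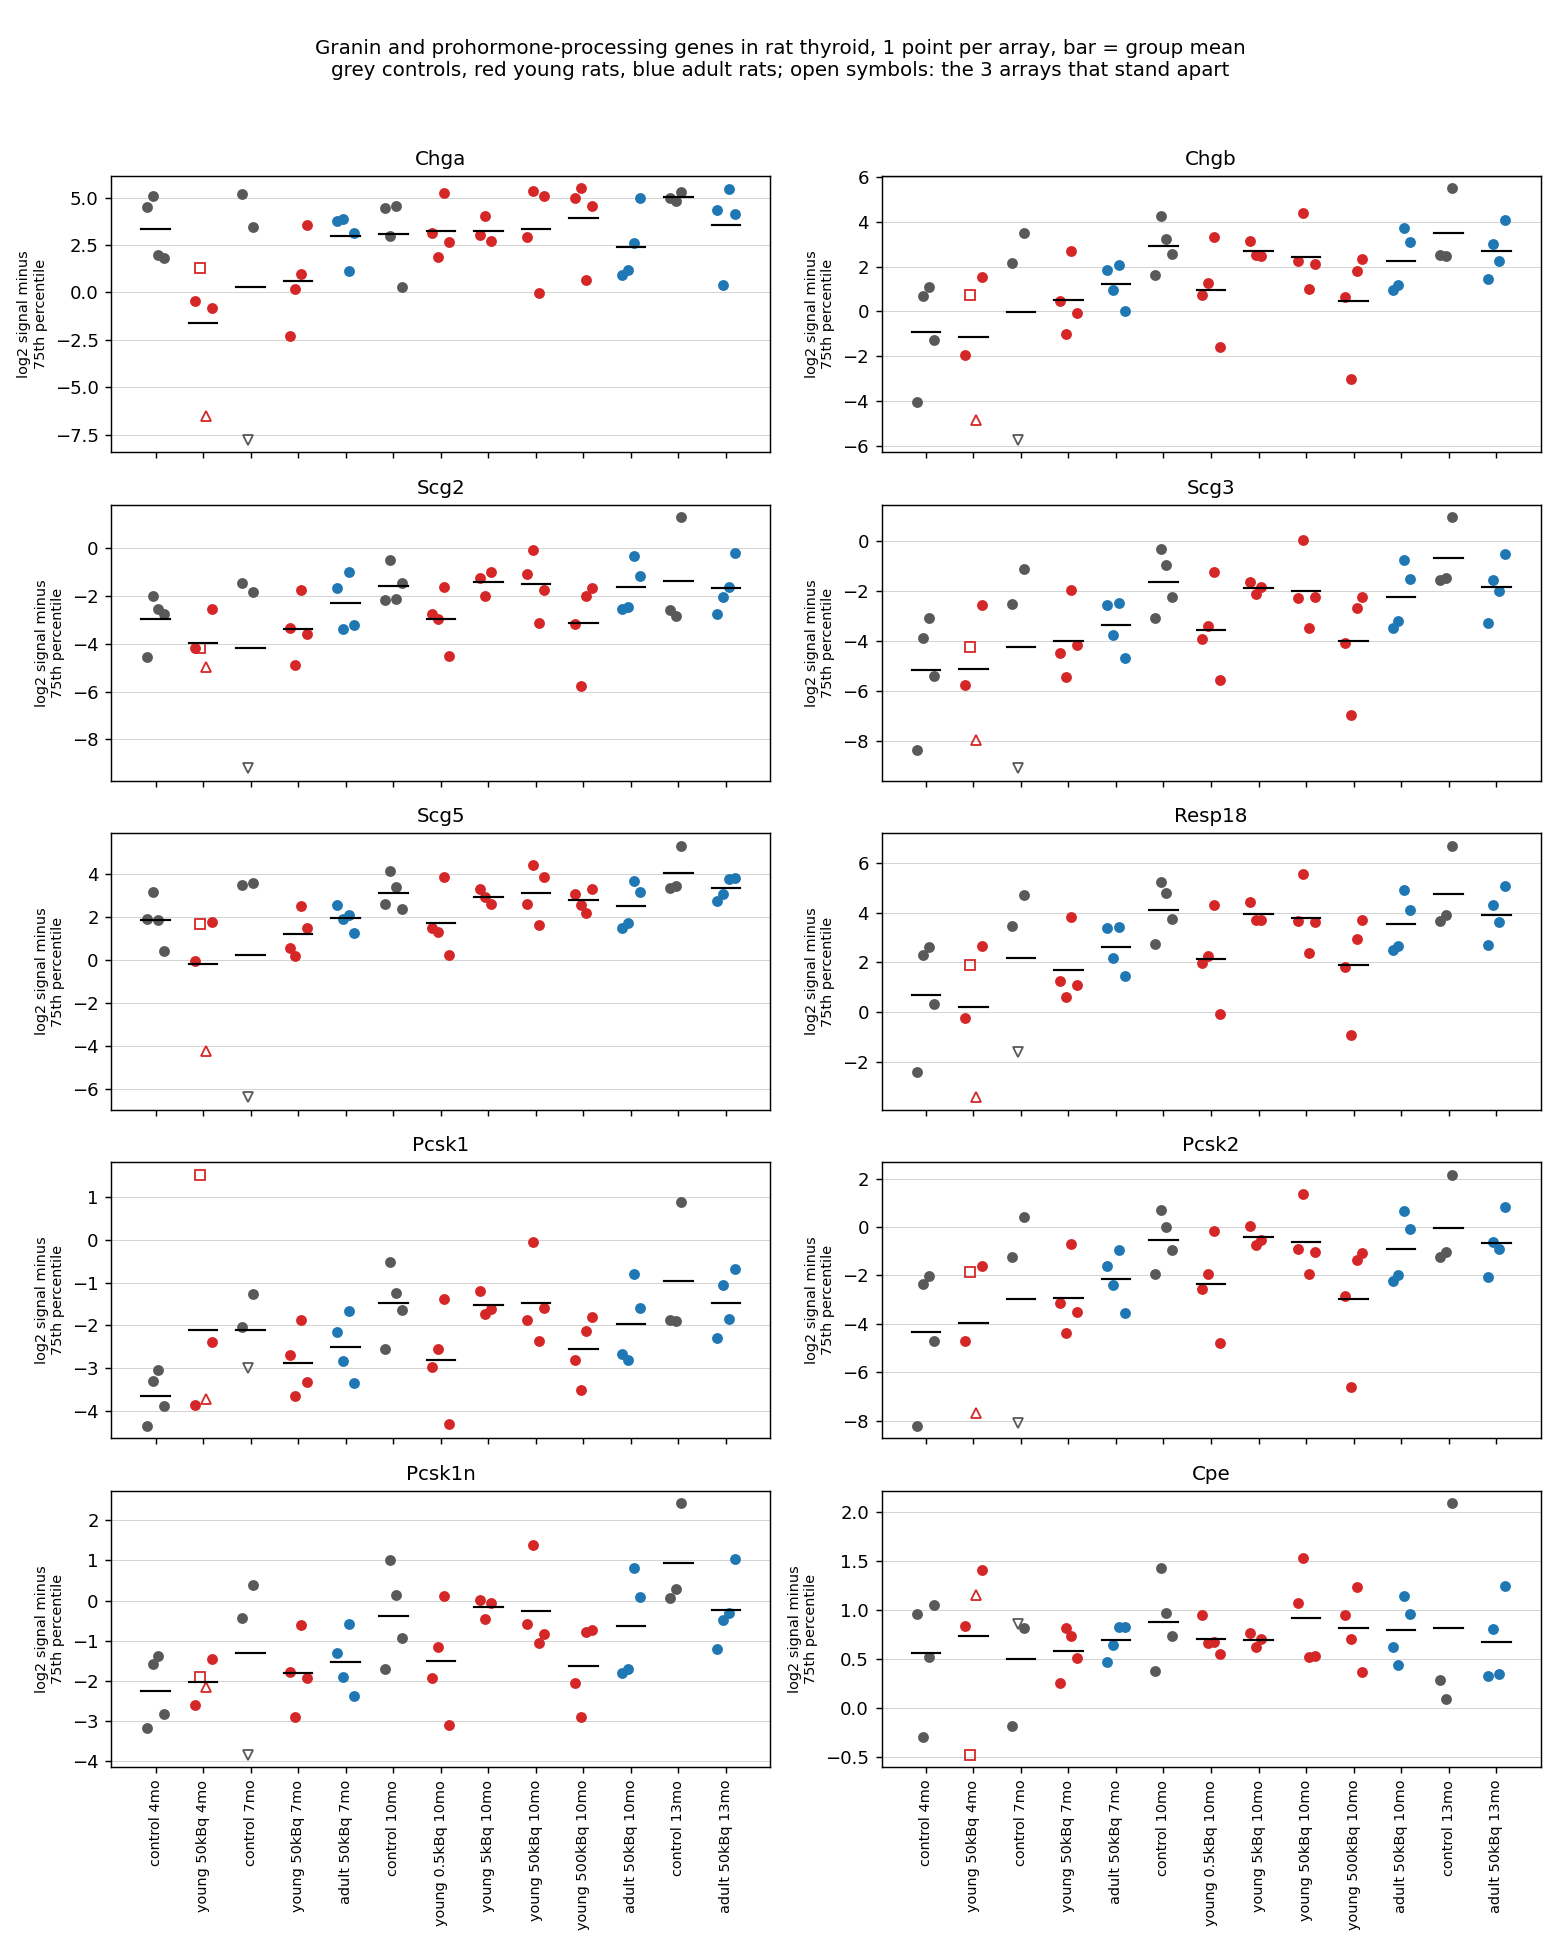
Level of each of the 10 members (log2 signal minus the array's 75th percentile) on every array, by group. Each point is 1 array, the bar is the group mean, controls are grey, young rats red and adult rats blue, and open symbols mark the 3 arrays that stood apart. The 13-month controls had the highest mean for every member but Cpe, and the SD within a group ran from 0.24 (13-month controls) to 7.04 (7-month controls) for Chga.

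In the order of the group means, the 13-month controls were highest for 9 members, and for Cpe the young rats at 10 months after 50 kBq. The 4-month controls were lowest for Scg3, Pcsk1, Pcsk2 and Pcsk1n, and the young rats at 4 months after 50 kBq for Chga, Chgb, Scg5 and Resp18. Of these 4 young rats 2 gave arrays that stood apart. Without the 3 arrays the 4-month controls were lowest for Chgb (-0.90) and Resp18 (0.69), the young rats at 4 months remained lowest for Chga and Scg5, and Cpe was highest in the latter (1.12). The mean of Chga ran from -1.62 ± 3.37 (SD, n = 4) in these young rats to 5.04 ± 0.24 (SD, n = 3) in the 13-month controls. The mean of Chgb ran from -1.14 ± 2.90 (SD, n = 4) to 3.48 ± 1.74 (SD, n = 3) in the same groups. Over the 2 remaining young rats the means were -0.64 ± 0.25 for Chga and -0.23 ± 2.47 for Chgb (SD, n = 2). With all arrays, none of the 12 steps between neighbouring groups was larger than the larger SD of the 2 groups, for any member, and the neighbours overlapped in all 12 steps for every member except Pcsk1n (11 of 12). The fitted group means took up 32.1% to 44.5% of the variance of the 9 variable members and 6.7% of that of Cpe. Without the 3 arrays these shares were 33.5% to 52.2% and 13.9%. With so few arrays per group, group means take up part of the variance even where the groups do not differ. That part was not subtracted, so the shares do not measure the differences between groups.

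The question which members follow each other was addressed by the correlation over the 49 arrays for all 45 pairs. A pair was said to follow each other where Pearson's r and Spearman's rho were both at least 0.7. This held for 27 of the 45 pairs. Among the 8 members other than Chga and Cpe it held for 26 of 28 pairs, and the remaining pair was Chga with Scg5. For each of the 27 pairs the two-sided permutation p was 1e-05, the smallest that the 100000 resamples can give. In a limma fit of every probe on the reference member and the group means, the Benjamini-Hochberg adjusted p over all probes lay between 2.86e-30 and 3.3e-05 for these pairs.

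Chgb, Scg3, Resp18 and Pcsk2 formed the tightest set. Their 6 pairs had r between 0.984 and 0.992 and rho between 0.971 and 0.992. After group means were subtracted, r lay between 0.983 and 0.993, and within the 3 scan dates (24, 14 and 11 arrays) between 0.96 and 0.998. Over the 46 arrays left after removal of the 3, it was 0.988 to 0.994. Chromogranin B, secretogranin III, Resp18 and convertase 2 transcripts thus moved together from animal to animal within the same group.

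Pcsk1n joined this set with r from 0.898 with Chgb to 0.927 with Scg3, and Scg2 with r from 0.865 with Resp18 to 0.905 with Chgb. Pcsk1 had r from 0.756 with Scg3 to 0.790 with Pcsk2. Its pairs with Scg2 (r = 0.618, rho = 0.771) and with Scg5 (r = 0.560, rho = 0.754) did not reach the limit. These values rested in part on the arrays that stood apart. Without the 3 arrays, r of Pcsk1 was 0.944 with Chgb, 0.962 with Pcsk1n, 0.878 with Scg2 and 0.83 with Scg5. Within the second scan date, which holds the dim array, r of Pcsk1 with Chgb was 0.549, and 0.973 without the arrays that stood apart.

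**Figure D2:**
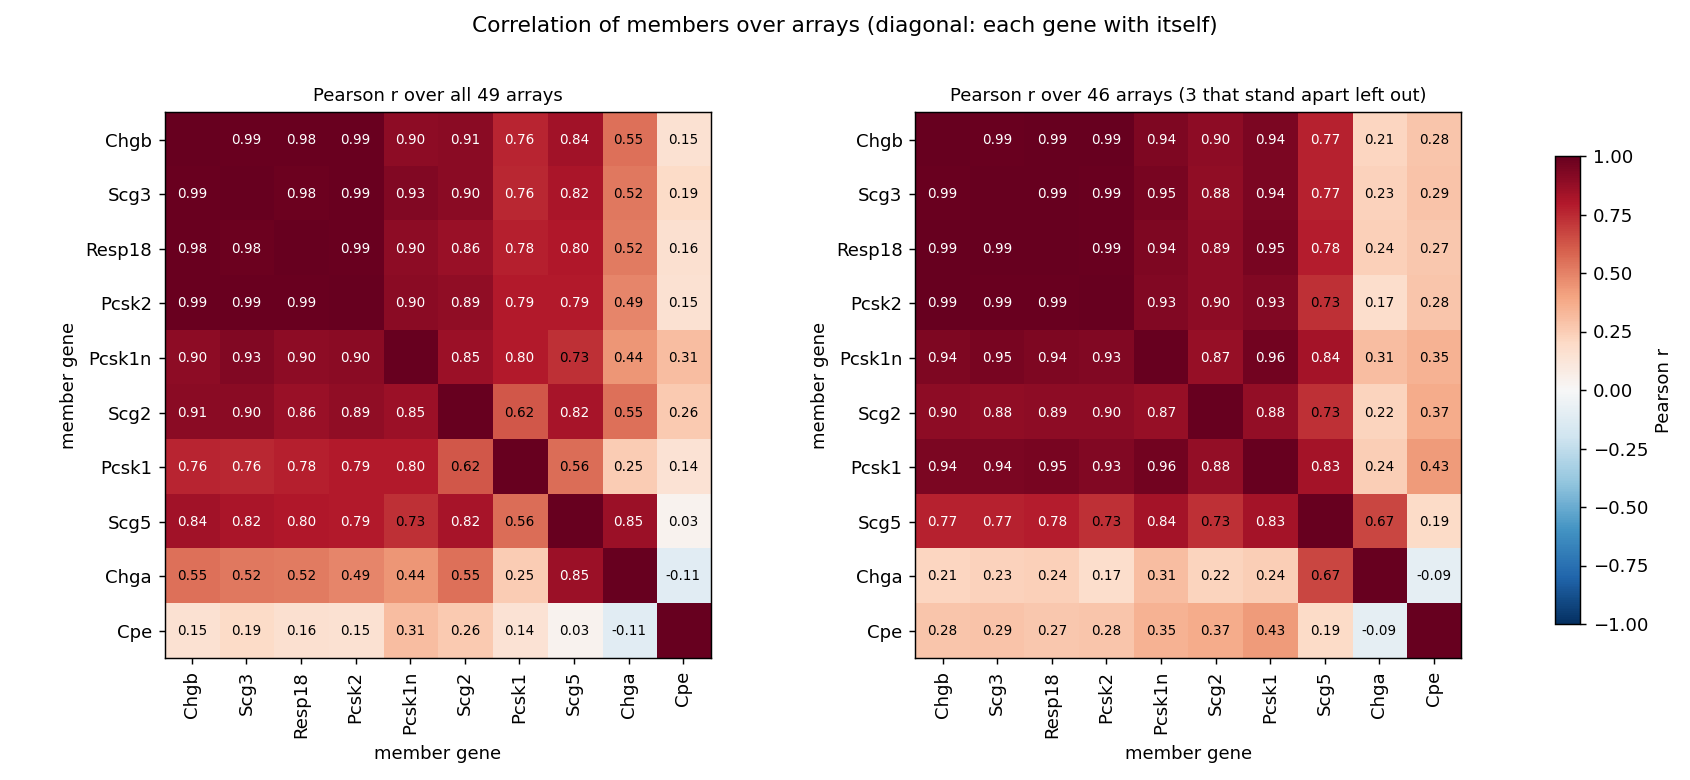
Pearson's r between every 2 members over all 49 arrays (left) and over 46 arrays without the 3 that stood apart (right), with the value printed in each cell and the colour scale from -1 to 1. Chgb, Scg3, Resp18 and Pcsk2 form a block near 1, Pcsk1 joins it on the right, and Chga and Cpe stay outside it in both panels.

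Among the other members Chga followed Scg5 alone. Its r was 0.548 with Chgb (rho = 0.348, permutation p = 0.00024, adjusted p = 0.0117 in the limma fit over all probes), 0.550 with Scg2, 0.524 with Scg3, 0.518 with Resp18, 0.488 with Pcsk2, 0.439 with Pcsk1n and 0.254 with Pcsk1. Without the 3 arrays r was 0.211 with Chgb and between 0.174 and 0.310 with the next 5, whereas that with Pcsk1 was 0.243 and so hardly moved. Without the 2 arrays farthest from the median of Chga, which were the same 2 low-Tg arrays, r with Chgb was 0.218. Single animals differed in the balance of the chromogranins. On replicate 1 of the 4-month controls Chga was 4.50 while Chgb was -4.04, and on replicate 2 of the rats given 500 kBq Chga was 5.49 while Chgb was -3.00. On replicate 2 of the adult rats at 13 months, Chga was 0.38 while Chgb was 3.02. Over the 19 arrays with Chga at 4 or more, Chgb ran from -4.04 to 5.49.

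Scg5 lay between Chga and the rest. Its r was 0.843 with Chgb, 0.804 with Resp18 and 0.852 with Chga (rho = 0.728, permutation p = 1e-05, adjusted p = 5.83e-08 in the limma fit). Over the 46 arrays r with Chga was 0.666, and without the 2 farthest arrays 0.670, so that this pair no longer followed, whereas r with Chgb was 0.766. Given Chgb, the partial correlation of Scg5 with Chga was 0.868, and given Chga, that with Chgb was 0.860. Over the 46 arrays these were 0.802 and 0.857. Chgb alone accounted for 71.1% of the variance of Scg5, Chga alone for 72.7% and both together for 92.9%, or for 58.7%, 44.4% and 85.3% over the 46 arrays. An added gene can only raise this share. By the partial correlations, Scg5 was related to each chromogranin with the other taken into account.

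Cpe followed no member. Its r ran from -0.115 with Chga to 0.307 with Pcsk1n (permutation p = 0.0313, adjusted p = 0.218 in the limma fit), and without the 3 arrays from -0.094 with Chga to 0.425 with Pcsk1. The scan dates differed in this. Without the 3 arrays, r of Cpe ran from -0.108 (Chga) to 0.503 (Pcsk1) within the first. Within the second it ran from -0.619 (Chga) to -0.028 (Scg2), and within the third from 0.639 (Chga) to 0.870 (Scg5). Only 10 of 25283 other probes, or 0.0396%, had r of at least 0.7 with Cpe, against 1.35% for Chga, 2.16% for Chgb, 0.981% for Scg2, 1.62% for Scg3, 3.81% for Scg5, 1.48% for Resp18, 1.49% for Pcsk1, 1.39% for Pcsk2 and 1.26% for Pcsk1n.

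Outside the members, the named genes most alike to Chga over the 49 arrays were Cryba2 (r = 0.956), a beta crystallin, Casr (0.945), the calcium-sensing receptor, Rhcg (0.907), an ammonium transporter, Dmrtc1a (0.906) and Alox12e (0.903), an epidermal lipoxygenase. Scg3 had the highest median r with the other members (0.899), and the named genes most alike to it were Scgn (0.990), which encodes the calcium-binding protein secretagogin, Celf3 (0.983), a neuronal splicing factor, Cabp7 (0.974), a calcium-binding protein, Ina (0.973), a neuronal intermediate filament, and Sftpd (0.968), surfactant protein D. Scgn also ranked first for Chgb (0.987), Resp18 (0.980) and Pcsk2 (0.988). First for Scg2 was Snap25 (0.940), a protein of vesicle fusion, for Scg5 Slc35g2 (0.955), for Pcsk1 Clstn3 (0.938) and for Pcsk1n Cited1 (0.967). These 5 genes of Chga and 5 of Scg3 had none in common.

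Marker lists of cell types that the tissue could hold were then set beside the members, as a description with no test. The points share the tissue and the array, and in whole-tissue RNA fewer cells of a type and less RNA per cell cannot be told apart. The C cell list (Calca, Calcb, Ret, Gfra4, Sst, Isl1 and Foxa2, all 7 tested) had r of 0.959 with Chgb, 0.954 with Scg3, 0.944 with Resp18, 0.943 with Pcsk2, 0.913 with Scg2, 0.881 with Pcsk1n, 0.844 with Scg5 and 0.726 with Pcsk1. Its r was 0.572 with Chga, or 0.243 without the 3 arrays, and 0.193 with Cpe. The parathyroid list (Pth, Gcm2 and Gata3, all 3 tested) gave a different order. It had r of 0.913 with Chga (rho = 0.967), or 0.937 without the 3 arrays (rho = 0.978), 0.670 with Scg5, and between -0.160 and 0.401 with the other 8.

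Gcm2, the transcription factor that specifies the parathyroid, had r of 0.896 with Chga and 0.349 with Chgb, or 0.976 and 0.169 without the 3 arrays. The parathyroid hormone gene Pth had r of 0.682 with Chga and 0.314 with Chgb, or 0.515 and -0.016 without them. It was at -4.60 on replicate 1 of the young rats at 7 months, where Chga was -2.32, and at -7.77 on replicate 2 of the adult rats at 13 months, where Chga was 0.38. Among the calcitonin genes, Calca had r of 0.862 with Chgb and 0.657 with Chga, or 0.924 and 0.095 without the 3 arrays. Calcb had r of 0.946 and 0.421, or 0.967 and 0.193. The follicular thyrocyte list had r of 0.789 with Scg5, 0.707 with Chgb, 0.664 with Pcsk2, 0.621 with Chga and -0.294 with Cpe over the 49 arrays. Over the 46 arrays its r was 0.366 with Scg5, 0.524 with Chgb, 0.500 with Pcsk2, 0.044 with Chga and -0.298 with Cpe. Among the lists for autonomic neurons or chromaffin cells, skeletal muscle, adipocytes, squamous epithelium and cartilage, the r farthest from 0 was -0.431 over the 49 arrays, of cartilage with Resp18, and -0.355 over the 46 arrays, of skeletal muscle with Chga.

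**Figure D3:**
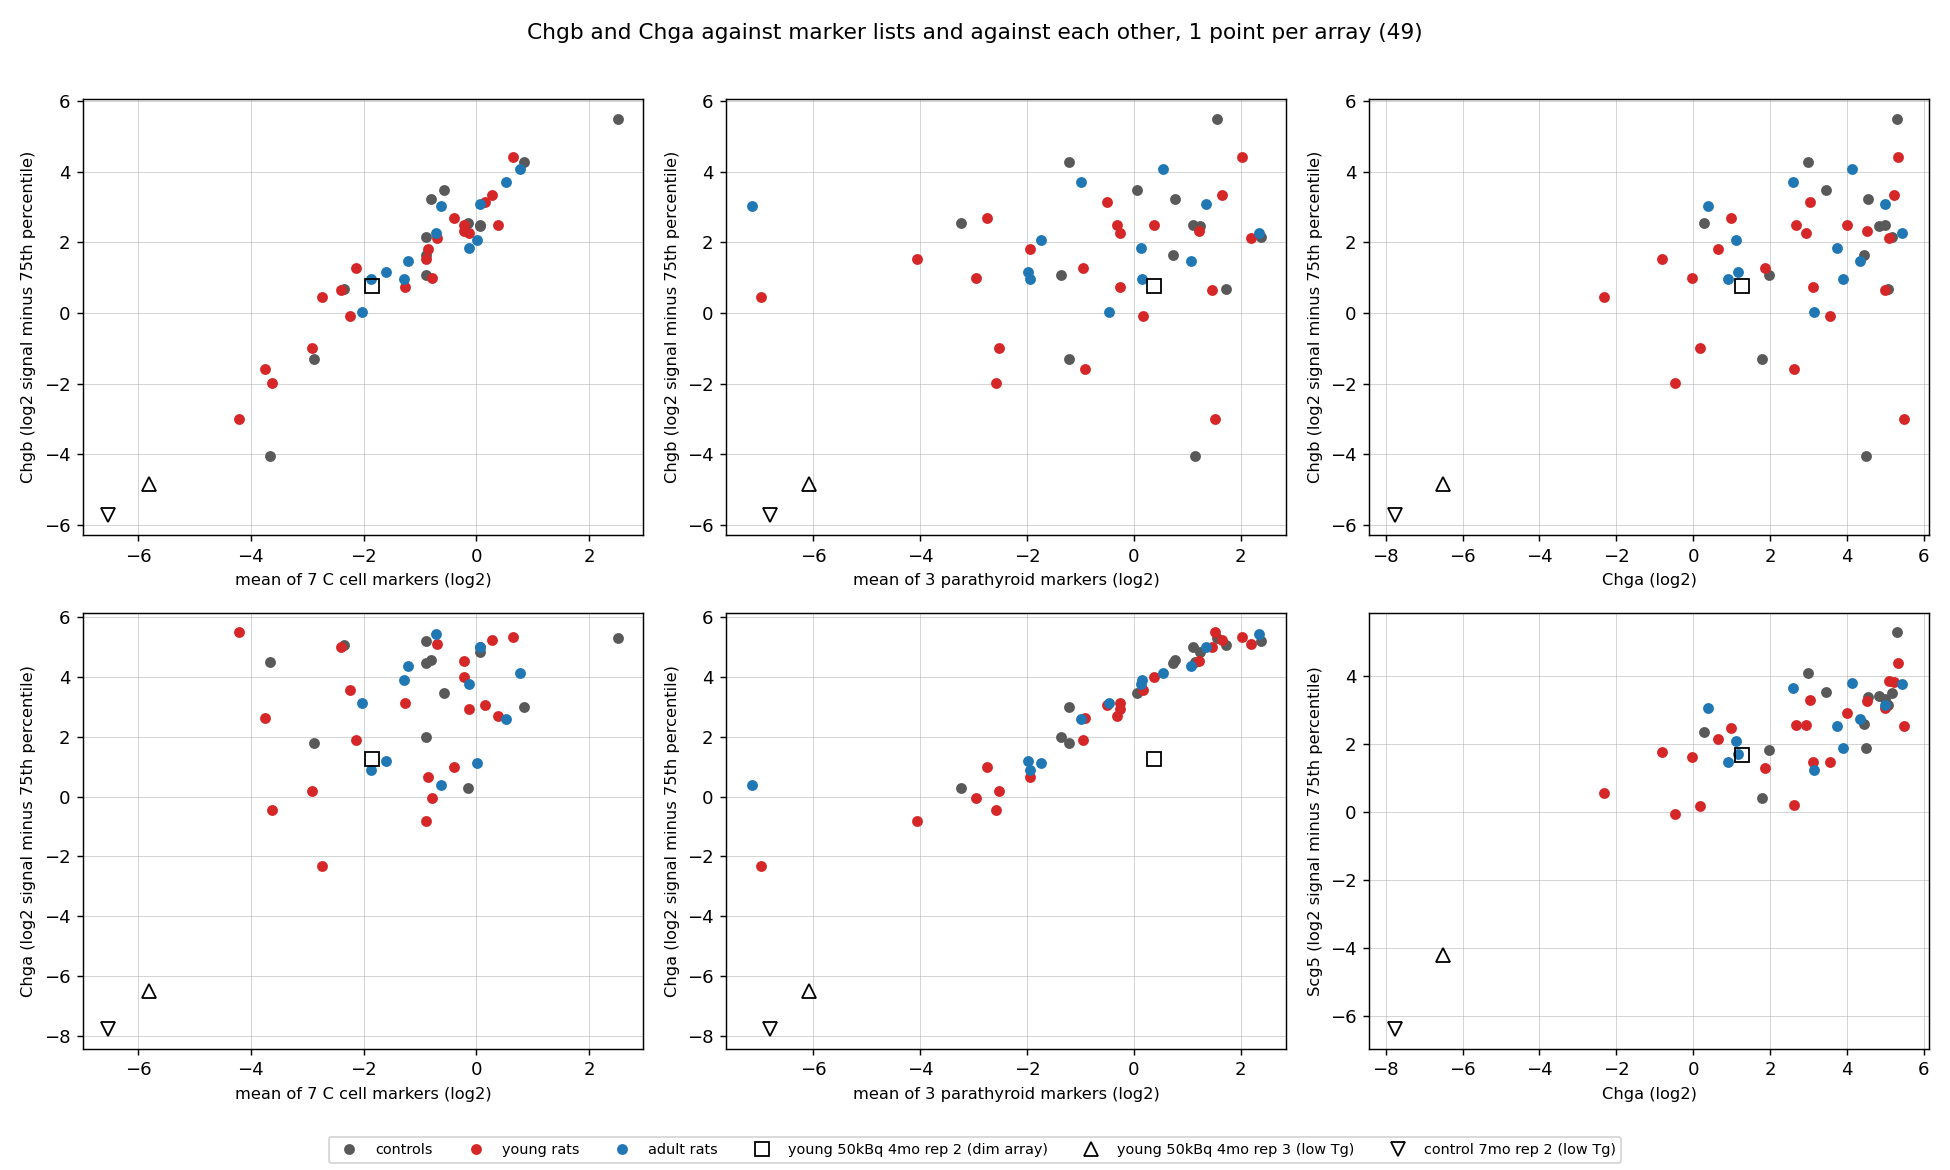
Chgb (top) and Chga (bottom) against the mean of the 7 C cell markers (left) and of the 3 parathyroid markers (middle), with Chgb and Scg5 against Chga at the right, all as log2 signal minus the array's 75th percentile. Each point is 1 of 49 arrays and open symbols mark the 3 that stood apart. Chgb lies along a line with the C cell markers (r = 0.959) and Chga with the parathyroid markers (r = 0.913), whereas the crossed panels are scattered.

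Since most members moved together, their promoters were searched for letters that are known from granin genes, the cAMP response element and the start of the RE1 element that the repressor REST binds. The 250 bases before the annotated transcription start were read from the RefSeq promoter table of the rat assembly GRCr8, which holds 8 of the 10 members and not Chga or Pcsk1. Both strands were searched. The full element TGACGTCA stood in 1.59% of 33469 promoters and in 1 of the 8 members, Scg2. Its shorter part TGACG, which the full element contains, stood in 18.2% of promoters and in 5 of the 8 members, Scg2, Scg3, Scg5, Pcsk2 and Cpe. The RE1 start CAGCACC stood in 5.43% of promoters and in 2 of the 8 members, Chgb and Scg2. A match of letters is a description and no proof of a site.

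The stretches of 30 bases around these matches are shown because they are the promoter letters that members which followed each other share or lack. They are written in the direction of the gene, the motif is in capitals, and CGTCA and GGTGCTG are TGACG and CAGCACC on the other strand.
Scg2 full element (chr9:88256971-88257000, minus strand, promoter, 123 to 116 bases before the start): ggctgagccggTGACGTCAgcgaggaatgc
Scg2 RE1 start (chr9:88256910-88256939, minus strand, promoter, 62 to 56 bases before the start): aggagctgtccGGTGCTGaaacggcccgag
Chgb RE1 start (chr3:140496682-140496711, plus strand, promoter, 8 to 2 bases before the start): gcccccccttgcctgagatccaCAGCACCt
Scg3 short element (chr8:85322536-85322565, minus strand, promoter, 69 to 65 bases before the start): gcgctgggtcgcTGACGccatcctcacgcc
Scg5 short element (chr3:121042796-121042825, minus strand, promoter, 7 to 3 bases before the start): tggagcttggttgcggagggaggTGACGca
Pcsk2 short element (chr3:151333869-151333898, plus strand, promoter, 57 to 53 bases before the start): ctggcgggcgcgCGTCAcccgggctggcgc
Cpe short element (chr16:29796522-29796551, plus strand, promoter, 173 to 169 bases before the start): ccatttggctttTGACGtgggtctgagcca
The shorter part was present both in members of the tightest set (Scg3 and Pcsk2) and in Cpe, which followed no member, and was not found in this window of Chgb, Resp18 and Pcsk1n.

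The effect of the exposure was addressed by comparing each of the 9 exposed groups with the untreated controls of the same age, in 1 limma fit of all 49 arrays with 25284 probes tested. A probe was called regulated where the adjusted p was under 0.01 and the fold, up or down, over 1.5. No member was called in any of the 9 comparisons. Of all probes, 0.0119% were called in the young rats at 4 months after 50 kBq, 0.0119% at 10 months after 5 kBq and 0.0119% at 10 months after 50 kBq, 0.558% in the adult rats at 13 months, and 0% in the other 5 comparisons. At an unadjusted p under 0.05 the count of members was 1, Chga in the young rats at 4 months, where 9.58% of all probes were lower at this level.

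Chga was -0.46, 1.27, -6.50 and -0.82 in these young rats and 4.50, 5.07, 1.98 and 1.80 in the 4-month controls. All 4 exposed arrays lay below all 4 controls, which held for 1.44% of all probes in this direction. The difference was -4.96 with an SE of 1.78 on the log2 scale (limma, unadjusted p = 0.00822, adjusted p = 0.048, where 3.19% of all probes were lower at an adjusted p under 0.05 and the same fold), and the two-sided exact permutation p was 0.0286, the smallest that 4 against 4 arrays allow. With the 3 arrays removed, which takes away 2 of the 4 exposed arrays, the difference was -3.98 with an SE of 1.54 (limma, adjusted p = 0.474), and the share of probes lower at an unadjusted p under 0.05 was 5.05%. The difference was -8.45 between the 2 and 2 arrays of the first scan date and -1.48 between those of the second. The exposed arrays of the first date include the low-Tg array (-6.50) and those of the second the dim array (1.27).

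The parathyroid markers lay on the same side as Chga in this comparison. Their differences ran from -4.26 to -2.59 with a median of -2.64, 1 of 3 was lower at an unadjusted p under 0.05, and none was called. On the exposed arrays the mean level of the list was -2.58, 0.368 (the dim array), -6.09 (the low-Tg array) and -4.07. On the controls it lay between -1.36 and 1.72. Their part in the Chga difference was not tested. The C cell list had a median difference of -0.41, and the median over all probes was 0.30. Of the cartilage markers 3 of 4 were higher at an unadjusted p under 0.05 (median 1.78), where 28.4% of all probes were, and of the squamous markers 2 of 5 were lower and 1 higher (median -4.04, down to -7.89). These list differences hold all arrays, and 2 of the 4 exposed arrays stood apart. Without the arrays that stood apart, 5.1% of all probes were higher at an unadjusted p under 0.05. The part of the cartilage and squamous markers was not tested either.

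In the other 8 comparisons of exposed rats, members differed from the controls by -2.47 (Chgb at 10 months after 500 kBq) to 2.68 (Chga in adult rats at 7 months), all with adjusted p of at least 0.45 in limma. Against the 7-month controls the direction rested on the low-Tg control. Without the 3 arrays, which leaves 2 of these controls, the difference changed sign for 7 of 10 members in adult rats and for 6 of 10 in young rats. In adult rats Chga went from 2.68 to -1.35, Chgb from 1.25 to -1.60 and Scg5 from 1.72 to -1.59, and in young rats Chga from 0.31 to -3.73, Chgb from 0.54 to -2.31 and Scg5 from 0.96 to -2.35. At 500 kBq, Chgb was 0.66, -3.00, 1.81 and 2.33 against 1.63, 4.27, 3.23 and 2.55 in the 10-month controls, and the groups overlapped. Chgb, Scg3, Resp18 and Pcsk2 moved together over the arrays, so they do not count as separate results. With the 3 arrays removed, these members were lower at 500 kBq at an unadjusted p under 0.05 (differences of -2.24 to -2.47, adjusted p of at least 0.936), where 1.44% of all probes were lower. On replicate 2 of the rats given 500 kBq, Scg3 and Pcsk2 were not well above background. With all arrays, 2 of 7 C cell markers were lower at this level at 500 kBq, with differences of the list from -2.95 to -0.67 and a median of -1.61, while the parathyroid median was 1.79, and their part was not tested. An unadjusted p under 0.05 was also reached without the 3 arrays by Scg5 (-1.41) and Pcsk1 (-1.31) at 0.5 kBq, with 1.26% of all probes, and by Chga (-3.73) and Scg5 (-2.35) in young rats at 7 months, with 7.86% of all probes and 2 controls left. None of these differences passed the adjustment, the smallest adjusted p being 0.31.

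A dose relation at 9 months was sought in the 15 young exposed rats of 10 months, as a slope against log10 activity. The slopes of the members lay between -0.18 and 0.35 on the log2 scale per factor of 10 in activity, with 0 members called, 0% of the 23116 probes called, and 0 members at an unadjusted p under 0.05 (limma). In 9 differences between exposure effects, of young against adult rats and between times after injection, 0 members and 0% of the probes were called. Of these 90 tests of members, 4 had an unadjusted p under 0.05, all in differences that involve the young rats at 4 months, the group with 2 of the 3 arrays that stood apart. Against adult rats at 7 months they were Chga (-7.64, adjusted p = 0.0742) and Scg5 (-3.76, adjusted p = 0.165), which came to -2.62 and 0.62 without the 3 arrays. Against young rats at 7 months it was Pcsk1 (2.33, adjusted p = 0.166), or 1.77 without them, and against young rats at 10 months Chga (-5.23, adjusted p = 0.28), or -4.24.

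Age was compared among the untreated controls. Chgb, Scg3, Resp18, Pcsk1, Pcsk2 and Pcsk1n had higher levels at 10 and 13 months than at 4 months at an unadjusted p under 0.05, where 2.35% of all probes were higher at 10 months and 20.6% at 13 months. With all arrays none of these differences passed the call, whereas the same 6 members passed it at 13 months when the 3 arrays that stood apart were left out, as did 14.7% of all probes in this direction. The comparisons share the 4-month controls, and these 6 members followed each other over the arrays, so they do not count as separate results. Replicates 1 and 2 of the 13-month controls lay close together, with Chgb at 2.50 and 2.45 and Calca at 7.83 and 7.84. Replicate 3 had Chgb at 5.49. On these 13-month arrays the 75th percentile of the signal was 1412, 1333 and 1441. It was at least 1478 on the others outside the 3 that stood apart. Each array was taken as a separate animal, and whether handling set this group apart was not tested.

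Chgb was -4.04, 0.67, 1.07 and -1.30 at 4 months, 2.16, -5.73 and 3.48 at 7 months, 1.63, 4.27, 3.23 and 2.55 at 10 months, and 2.50, 2.45 and 5.49 at 13 months. Every control of 10 or 13 months lay above every control of 4 months, and at 7 months the low-Tg array lay below them and the other two above. The difference from 4 months was 3.82 with an SE of 1.43 at 10 months (limma, adjusted p = 0.956) and 4.38 with an SE of 1.55 at 13 months (adjusted p = 0.0426). The two-sided exact permutation p was 0.0286 at 10 months and 0.0571 at 13 months, and the smallest that either design allows is 0.0286.

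Pcsk2 was -8.22, -2.37, -2.01 and -4.73 at 4 months, -1.94, 0.72, 0.01 and -0.95 at 10 months, and -1.24, -1.03 and 2.17 at 13 months. The level of -8.22 was not well above background. Pcsk1 was -4.35, -3.29, -3.05 and -3.88 at 4 months, -2.55, -0.52, -1.24 and -1.63 at 10 months, and -1.87, -1.89 and 0.90 at 13 months. Pcsk1n was -3.17, -1.57, -1.38 and -2.82 at 4 months, -1.69, 1.01, 0.13 and -0.94 at 10 months, and 0.06, 0.30 and 2.42 at 13 months. The levels of Pcsk1, Pcsk2 and Pcsk1n were thus above the 4-month range in every 13-month control, and at 10 months only Pcsk1n overlapped with 4 months.

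At 10 months against 4 months, 6 members were higher at an unadjusted p under 0.05, namely Chgb, Scg3 (3.52), Resp18 (3.43), Pcsk1 (2.16), Pcsk2 (3.79) and Pcsk1n (1.86). The groups did not overlap for the first 5 of these, against 1.81% of all probes in this direction. The margins were narrow for some. The highest 4-month and lowest 10-month levels were -3.07 and -3.06 for Scg3, -2.01 and -1.94 for Pcsk2 and 2.60 and 2.72 for Resp18. They were 1.07 and 1.63 for Chgb and -3.05 and -2.55 for Pcsk1. In limma the adjusted p was 0.899 to 1 for these 6 members, 0 members were called, and 0.0119% of the probes were called. With each array left out in turn, the difference ran from 2.77 to 4.48 for Chgb and 2.46 to 4.22 for Scg3. It ran from 2.39 to 4.07 for Resp18 and 2.50 to 4.57 for Pcsk2. The lowest came without replicate 1 of the 4-month controls, on which Scg3 and Pcsk2 were not well above background. At 13 months the lowest, also without this array, were 3.34, 3.42, 3.01 and 3.00 in this order of genes.

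At 13 months against 4 months the same 6 members were higher at an unadjusted p under 0.05. The differences were 4.48 for Scg3, 4.06 for Resp18, 2.69 for Pcsk1, 4.30 for Pcsk2 and 3.16 for Pcsk1n beside the 4.38 for Chgb. The groups did not overlap for these 6 and for Scg5 (2.19, adjusted p = 0.251), against 21.5% of all probes. In limma the adjusted p was 0.0102 for Pcsk1n to 0.0481 for Pcsk2, so that 0 members were called where 5.15% of all probes were, and 6 members passed at an adjusted p under 0.05 where 10.3% of all probes did in this direction. With the scan date as a block 2 members were called, Scg3 and Pcsk1n, among 2380 probes called.

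With the 3 arrays left out, the 4-month and 13-month controls kept all their arrays and the differences stayed as they were, while the SE of Chgb went from 1.55 to 1.21. The 6 members were then called, with adjusted p of 0.00499 for Chgb, 0.00285 for Scg3, 0.00463 for Resp18, 0.00226 for Pcsk1, 0.00886 for Pcsk2 and 0.00198 for Pcsk1n (limma), where 14.7% of all probes were called higher. Scg5 had an adjusted p of 0.0158. At an unadjusted p under 0.05, 7 members were then higher at 13 months (31.1% of all probes), 6 at 10 months (3.9% of all probes) and 7 at 7 months (10.4% of all probes), the last on 2 controls.

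At 7 months against 4 months with all arrays, 0 members were called, 0.00396% of all probes were called, and 0 members were higher at an unadjusted p under 0.05, where 3.76% of all probes were. Pcsk1 (1.55, limma unadjusted p = 0.0736, exact permutation p = 0.0286) was the only member whose groups did not overlap, against 4.73% of all probes. Within the first scan date the difference of Chgb was 4.50 at 10 months (3 against 2 arrays) and 5.68 at 13 months (2 against 2), and within the second it was 2.94 at 7 months (2 against 2) and 2.57 at 13 months (1 against 2).

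Chga differed from this pattern. It was 4.99, 4.83 and 5.31 at 13 months, above the 4-month mean of 3.34 and within the 4-month range of 1.80 to 5.07 for 2 of the 3 arrays. Cpe was 0.28, 0.09 and 2.09 at 13 months and -0.30 to 1.05 at 4 months, and Scg2 was -2.58, -2.86 and 1.30 against -4.54 to -2.01. The groups overlapped for all 3 genes.

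**Figure D4:**
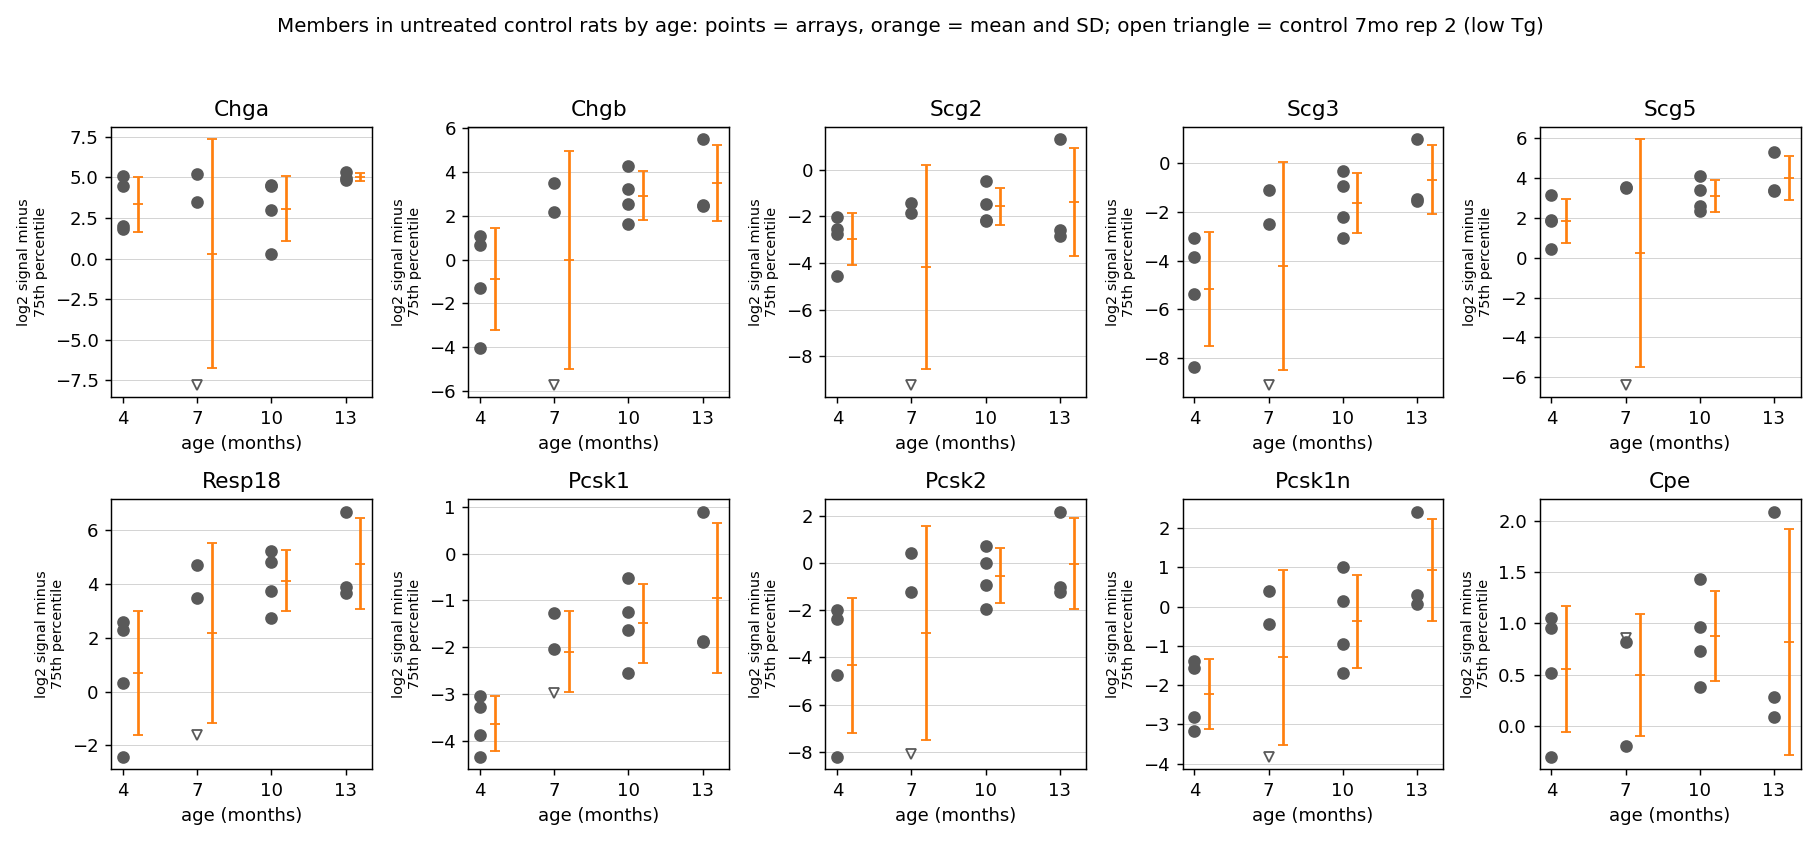
Level of each member in the untreated controls at 4, 7, 10 and 13 months of age (log2 signal minus the array's 75th percentile). Points are arrays, the orange mark and bar are the mean and SD, and the open triangle is the low-Tg array at 7 months. For Chgb, Scg3, Resp18, Pcsk1 and Pcsk2 every control of 10 or 13 months lies above every control of 4 months. The margin is narrowest for Scg3, with -3.07 at 4 months and -3.06 at 10 months.

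The C cell markers lay on the same side as the members in both age comparisons, by their medians. At 10 months 3 of 7 were higher at an unadjusted p under 0.05 with a median difference of 2.73, and at 13 months 5 of 7 with a median of 3.35, none of them called. Of all probes 2.35% were higher at 10 months, and 20.6% higher and 13.5% lower at 13 months. The mean level of the list lay between -3.66 and -0.901 in the 4-month controls, between -0.896 and 0.843 at 10 months and between 0.064 and 2.51 at 13 months. Calca was well above background on 48 of 49 arrays. The parathyroid list had 0 of 3 past that level in both comparisons, with medians of -0.84 and 1.49. At 10 months 3 of 3 adipocyte markers were higher (median 1.39) and 2 of 4 cartilage markers lower (median -1.21) at an unadjusted p under 0.05. At 13 months 4 of 5 skeletal muscle markers (median -2.17) and 3 of 5 squamous markers (median -5.31) were lower at that level. The follicular thyrocyte list had a median of 0.23 at 10 months, with 0 of 8 past that level. At 13 months its differences ran from 0.34 to 2.14 with a median of 1.67, and 1 of 8 was higher at that level. The median over all probes at 13 months was 0.19. The part of these markers in the age differences was not tested.

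Other genes of the granule pathway were taken from 4 lists. Of the granule proteins 19 of 21 were tested, and 6 of them had r of at least 0.7 with Chgb over the 49 arrays: Scgn (0.987), Snap25 (0.952), the calcium sensor Syt4 (0.941), the priming factor Cadps (0.897), the granule membrane protein Ptprn (0.864) and Nucb2 (0.771), the precursor of nesfatin. Only Ica1 (0.867), the islet cell autoantigen, and Sytl4 (0.748), granuphilin, reached it with Chga. Among 6 of 9 endocrine transcription factors that were tested it was 1 with Chgb, St18 (0.858), and among 12 of 14 peptide hormones it was 2, Trh (0.942) and Nmu (0.81), with 0 for Chga in both lists. Among 14 of 15 other processing enzymes it was 0 for Chgb and for Chga, and over the 46 arrays 1 for each.

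At 13 against 4 months, 7 of the 19 granule proteins were higher and 0 lower at an unadjusted p under 0.05, with a median difference of 1.33 and 0 called, where 20.6% of all probes were higher, 13.5% lower and 5.15% called. They included Syt4 (4.16, limma adjusted p = 0.0105) and Scgn (3.95, adjusted p = 0.0411). Of the 14 enzymes 4 were higher and 3 lower, and Furin (1.13, adjusted p = 0.000626), the convertase of the general secretory route, was called. Pam (1.5, adjusted p = 0.019), which amidates peptides such as calcitonin, had an unadjusted p under 0.05 without being called, as had Pcsk6 (-1.58, adjusted p = 0.0248). Of the 6 transcription factors Creb1 (1.13, adjusted p = 0.00126), which binds the cAMP response element, and Rest (1.37, adjusted p = 0.00394), which represses neuronal and granin genes, were called higher. Of the 12 peptide hormones Nmb (1.70, adjusted p = 0.00315), neuromedin B, was called higher. In the exposed groups the call of a pathway gene was made once, for Creb1 in adult rats at 13 months (-1.21, adjusted p = 0.00437). Of all probes 0.558% were called in that comparison. It shares the 13-month controls with the comparison of 13 against 4 months, so the Creb1 calls are not independent.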

How the data were processed

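Thyroid RNA was measured on 49 one-colour arrays, 1 per rat. The authors deposited the processed signal intensity of each spot from Agilent Feature Extraction 10.7.3.1, background-subtracted and not scaled between arrays; their flags for spots well above background were deposited as other values of 0 or 1. The methods name Nexus Expression without its test. The authors' own fold changes, in a separate list, were not used.

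After removal of control and outlier spots, each log2 signal was scaled by subtracting its array's 75th percentile, and a probe's spots were averaged. Probes well above background on at least 3 arrays (25284) entered a limma fit (version 3.58.1, R 4.3.3) with 1 mean per group, and p-values were Benjamini-Hochberg adjusted. For single members an exact permutation test (two-sided) was added, and pairs of members were tested by permuting arrays. Other scalings, background correction, dim-probe filters, blocks for slide, scan date and replicate number, array weights and leaving out arrays were tried. All 10 members were named, with differences printed at an unadjusted p under 0.05 or without overlap of the groups. The members and lists were chosen with earlier results of these data known. Some genes are not reported here and were left out of the marker lists. In simulated arrays for 10 against 4 months, 18% of the probes changed by 1 log2 unit, 56% by 2, 88% by 4 and 98% by 6 were recovered. The changed probes were drawn at random from all probes, whose median SD was 0.577. Every member but Cpe had a wider SD (2.32 for Chgb, 2.82 for Chga), so these shares do not give the recovery for the members. The arrays were run on 8 slides and 3 scan dates. The number of arrays limits the precision. The p-values rest on the spread between arrays, each taken as a separate animal.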

Additional observations from a re-analysis of the deposited data

How the results depend on the processing

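The count of members called moved in 2 comparisons. For 13-month against 4-month controls it was 0, and became 6 at an adjusted p under 0.05, 1 with quantile normalization, 1 with the stricter filter on dim probes, which asks for a whole group above background, 2 with the scan date as a block, 1 with the replicate block, 6 with array weights and 6 without the 3 arrays that stood apart, an alternative chosen after seeing the data. Leaving out each array in turn gave 0 to 2, with 2 without replicate 2 of the young rats at 4 months or replicate 2 of the 7-month controls, and 1 without each of 9 other arrays. It stayed 0 with normexp, no dim-probe filter, the slide as a block, probes of a gene averaged and the fit of these groups alone. The count of all probes called was 1302, and 4474 at an adjusted p under 0.05, 498 with normexp, 3248 with the slide and 2380 with the scan date as a block, 788 with the replicate block, 9033 with array weights, 0 in the fit of these groups alone and 5534 without the 3 arrays. For the young rats at 4 months the count of members called was 0, and became 1 at an adjusted p under 0.05, where 4279 of the 25284 probes were called against 3, and stayed 0 under the other alternatives. In the adult rats at 13 months the 141 probes called ranged from 0 to 7860 over 12 alternatives. The cause of these shifts was not tested.

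Pairs that follow each other numbered 27, and 26 to 29 over the alternatives, with 27 under the replicate block. The correlation of Chga with Scg5 was 0.843 with slide means subtracted, where rho fell under the limit, 0.666 without the 3 arrays, 0.67 without the 2 farthest, and 0.786 to 0.867 with each array left out. The difference of the Scg5 effect between young rats at 4 months and adult rats at 7 months was -3.76 and turned to 0.44 with array weights and 0.62 without the 3 arrays. Arrays of different groups with the same replicate number did not deviate together (median r -0.025 over 279 pairs, range -0.696 to 0.696, against 0.011 over 828 pairs with other numbers), so the numbers were not treated as pairs.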
